A study of Mus musculus with 2 samples.

Results

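The 8 microtubule-associated protein genes Mapt, Map2, Map1a, Map1b, Map4, Map6, Dclk1 and Tppp were described in total RNA of the mouse hippocampus, by gene and by transcript. They were chosen by gene symbol and not by a measured value, though with earlier results of these data known. All 8 were found among 55536 annotated genes, with 89 of 141864 annotated transcripts. The samples were 1 group of 2 libraries, biological replicates 1 and 2, from female B6CASTF1/J mice (the F1 hybrid of C57BL/6J and CAST/EiJ) aged 14 days, with 3 females listed for each library and 300 ng of RNA used. The labels describe the tissue as a hippocampal layer and do not name it, give both libraries the same donor identifier, and do not say at which step the listed females were pooled. There was no treatment and no second genotype, age or tissue, so no condition was compared and no p-value is given. Spread between these libraries may be in part technical.

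Microtubule-associated proteins bind the microtubule lattice and set its stability, spacing and traffic in axons and dendrites. Tau, MAP2 and MAP4 share a C-terminal row of imperfect repeats that bind tubulin, and in MAP2 the number of repeats is set by splicing. In rodents the short juvenile form of MAP2, of low molecular weight, gives way after birth to MAP2 of high molecular weight. MAP1A and MAP1B are made as precursors that are cut into a heavy and a light chain. MAP6 protects microtubules from cold, DCLK1 joins doublecortin domains to a protein kinase, and TPPP bundles microtubules in oligodendrocytes.

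An exon of 93 bases, or 31 codons, decides the number of tubulin-binding repeats in MAP2, and Map4 has a counterpart of equal length. It is shown here because the share of transcripts with it is a main readout below. Positions are on mm10, both on the plus strand: chr1:66431527-66431619 for Map2 and chr9:110072613-110072705 for Map4. Capitals mark the 59 bases that are identical in these genes, or 63.4%.
Map2: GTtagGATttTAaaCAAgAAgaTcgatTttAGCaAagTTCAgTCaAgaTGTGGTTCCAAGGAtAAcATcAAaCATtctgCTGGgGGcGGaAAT
Map4: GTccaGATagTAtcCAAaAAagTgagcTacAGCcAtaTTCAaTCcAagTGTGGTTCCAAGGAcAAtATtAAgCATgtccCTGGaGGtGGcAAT
The longest identical run was 14 bases.

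A pair of exons in Mapt decides the length of the N-terminal projection of tau. Both are coding exons of 87 bases, or 29 codons, on the plus strand, at chr11:104287123-104287209 and chr11:104289908-104289994, and both are in transcript Mapt-201. Lower case is used throughout, since they were identical at only 34.5% of positions.
first insert: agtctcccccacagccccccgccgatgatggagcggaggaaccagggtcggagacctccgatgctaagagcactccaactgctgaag
second insert: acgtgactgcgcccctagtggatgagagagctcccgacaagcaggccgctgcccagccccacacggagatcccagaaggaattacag

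All 8 genes were abundant messages, and their order by level was the same in both libraries. Levels are in TPM (a level per length, scaled to a fixed total in each library) from the deposited gene tables, whose layout is that of the program RSEM. Detection meant at least 1 TPM in each library, and 8 of 8 were detected, where 58.6% of 22015 nuclear protein-coding genes were. Their median was 228 TPM in replicate 1 and 249 TPM in replicate 2, and the median of all 12892 detected nuclear protein-coding genes was 14.9 TPM. By mean level 7 of 8 lay in the top 10% of these genes. In bulk tissue, fewer cells of a type and less RNA per cell cannot be told apart. The second deposited quantification, with the layout of the program kallisto, gave a higher TPM for 8 of 8 genes, by 1.33 times for Tppp to 1.80 times for Map6, where 98.4% of detected nuclear protein-coding genes were higher.

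**Figure D1:**
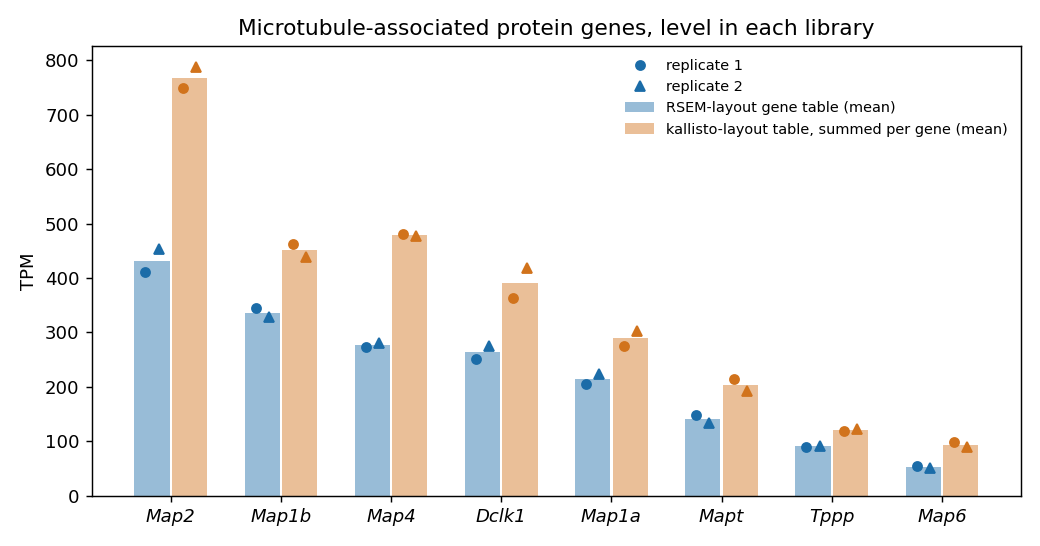
Level of each gene in TPM on a linear axis, with bars for the mean of the 2 libraries, circles for replicate 1 and triangles for replicate 2. Blue is the RSEM-layout gene table and orange the kallisto-layout table summed per gene. Map2 stood highest, with means of 432 and 768 TPM, and Map6 lowest, with means of 52.3 and 93.9 TPM.

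**Figure D2:**
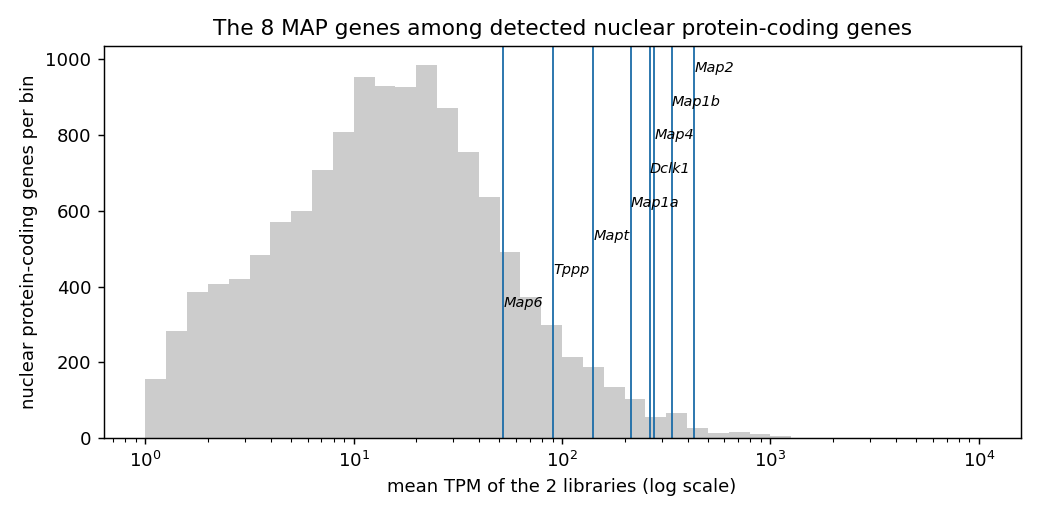
Histogram of mean TPM (log axis) over the 12892 detected nuclear protein-coding genes, with a line for each of the 8 genes. All 8 lines lie right of the median of 14.9 TPM, from Map6 at 52.3 TPM to Map2 at 432 TPM.

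Choroid plexus RNA differed between the libraries, and the rest of the marker genes placed both in hippocampus. Of 6 neuronal markers 6 were detected, with a median of 316 TPM in replicate 1 and 291 TPM in replicate 2, and so were 6 of 6 markers of hippocampal fields, such as Prox1 of the dentate gyrus (45.2 and 55.6 TPM) and Wfs1 of CA1 (49.95 and 69.6 TPM). The field markers did not move together between the libraries. Like these, C1ql2 was higher in replicate 2 (17.6 and 24.7 TPM). Fibcd1 (50.8 and 41.8 TPM), Cpne4 (61.4 and 52.85 TPM) and Bok (41.45 and 37.3 TPM) were lower in replicate 2. Markers of astrocytes (4 of 4), oligodendrocyte precursors (3 of 3), microglia (3 of 3), endothelium (3 of 3) and fibroblasts (3 of 3) were detected too. The sum of the 4 choroid plexus markers was 1401 TPM in replicate 1, and it was 6.12 TPM in replicate 2. The transthyretin gene Ttr made up 1375 and 5.62 TPM of these sums, and Folr1, Kcnj13 and Otx2 were at 4.44 to 15.5 TPM in replicate 1 and 0.110 to 0.260 TPM in replicate 2. That of the fibroblast markers was 50.3 TPM in replicate 1, and it was 33.1 TPM in replicate 2. The part of these cells in differences of the 8 genes between libraries was not tested, and every value is given per library. Depth was 33465393 and 32879872 expected counts.

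Tau, the axonal microtubule protein encoded by Mapt (chr11:104231390-104332090, plus strand), was at 149 TPM in replicate 1 and 133 TPM in replicate 2. The mean was 141 ± 11.0 TPM (SD, n = 2), which placed it sixth of the 8 genes and at percentile 95.9 of detected nuclear protein-coding genes. It rested on 13143 and 12036 expected counts. Map2, its dendritic relative (chr1:66175273-66442583, plus strand), was at 411 and 452 TPM, with a mean of 432 ± 29.3 TPM and percentile 99.4. It ranked 74 from the top among detected nuclear protein-coding genes. The level of Map2 was 2.76 times that of Mapt in replicate 1 and 3.39 times in replicate 2.

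Most tau message was assigned to the entry without the N-terminal inserts. Mapt-204, which lacks both 87-base exons and encodes 372 codons, held 71.0% of Mapt TPM in replicate 1 and 73.1% in replicate 2 (105.9 and 97.6 TPM). Mapt-201, with both inserts and 430 codons, held 8.45% and 8.73%. Apart from big tau, Mapt-204 and Mapt-201 were the only complete coding entries. A message with 1 insert thus had no complete entry of its own, and where its reads were placed was not tested. Mapt-204 is annotated with 5253 bases, 1116 of them coding, and Mapt-201 with 1362 bases, 1290 of them coding. Reads of sequence annotated only on Mapt-204 would be placed there even if they came from messages with inserts. The division between these entries thus depends on the annotation, and the size of this effect was not tested. Both quantifications put most Mapt TPM on Mapt-204, though both rest on the same annotated entries and so share these limits. The kallisto layout put Mapt-204 at 73.0% ± 2.47 and Mapt-201 at 9.47% ± 1.31 (SD, n = 2). The 2 transcripts with the long exon of big tau, the form of peripheral neurons, held 0.949% ± 0.289. The rest was in entries with an incomplete coding sequence, at 13.7% ± 1.29, and in noncoding or retained-intron entries, at 4.66% ± 0.667, and the quantifications differed on these, with 2.48% and 13.6% in the kallisto layout. Mapt-207, an incomplete entry of 293 bases, held 12.5% and 10.2% in the first quantification and is listed at 0 in the second.

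By the TPM assigned to annotated transcripts, the 93-base exon shown above was rare in Map2 and common in Map4. In Map2, 4 of 10 coding transcripts that run across its position contain the exon and held 4.001% of their TPM in replicate 1 and 3.36% in replicate 2. In Map4, 7 of 9 such transcripts contain it and held 94.8% and 96.7%. By assigned TPM, Map2 was thus mostly of the kind with 3 repeats in both libraries, and Map4 mostly with the exon. Map2-204, the only complete high-molecular-weight entry, lacks the exon. A long Map2 message with 4 repeats thus had no complete entry of its own, and where its reads were placed was not tested. In the kallisto layout the means were 4.64% for Map2 and 88.0% for Map4. The 93-base repeat exon of Mapt was also planned as a class, and no share of it is given here.

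Map2 message was assigned to entries of both the long and the short protein. Map2-204, whose long internal exons give high-molecular-weight MAP2 of 1828 codons, held 42.0% in replicate 1 and 41.7% in replicate 2 (172 and 189 TPM). The 4 low-molecular-weight transcripts with 3 repeats, the juvenile MAP2C kind, together held 34.5% and 33.2% (142 and 150.2 TPM). The 2 low-molecular-weight transcripts with 4 repeats held 3.32% and 2.71%. High-molecular-weight MAP2 was the larger class in both libraries and in both quantifications, at 32.9% ± 0.904 against 26.7% ± 0.573 for the short class with 3 repeats in the kallisto layout. Incomplete Map2 entries took 15.6% ± 0.857 in the first quantification and 33.8% ± 0.657 in the second, of which Map2-218, of 546 bases, held 6.23% and 20.4% of all Map2 TPM. Which short transcript carried the class was not settled: Map2-201 held 29.6% in the first quantification and 5.1e-05% in the second, and Map2-202 held 2.68% and 24.4%. These transcripts both encode 467 codons, and 96.3% of the 31-base words of Map2-201 are also in Map2-202. Map2-204 is annotated with 6258 bases, 5484 of them coding, and Map2-201 with 5195 bases, 1401 of them coding. Of the 5165 words in Map2-201, only 1694 are in Map2-204. Reads of sequence annotated only on short entries would be placed there even if they came from long messages. The division between the classes thus depends on the annotation, and the size of this effect was not tested.

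**Figure D3:**
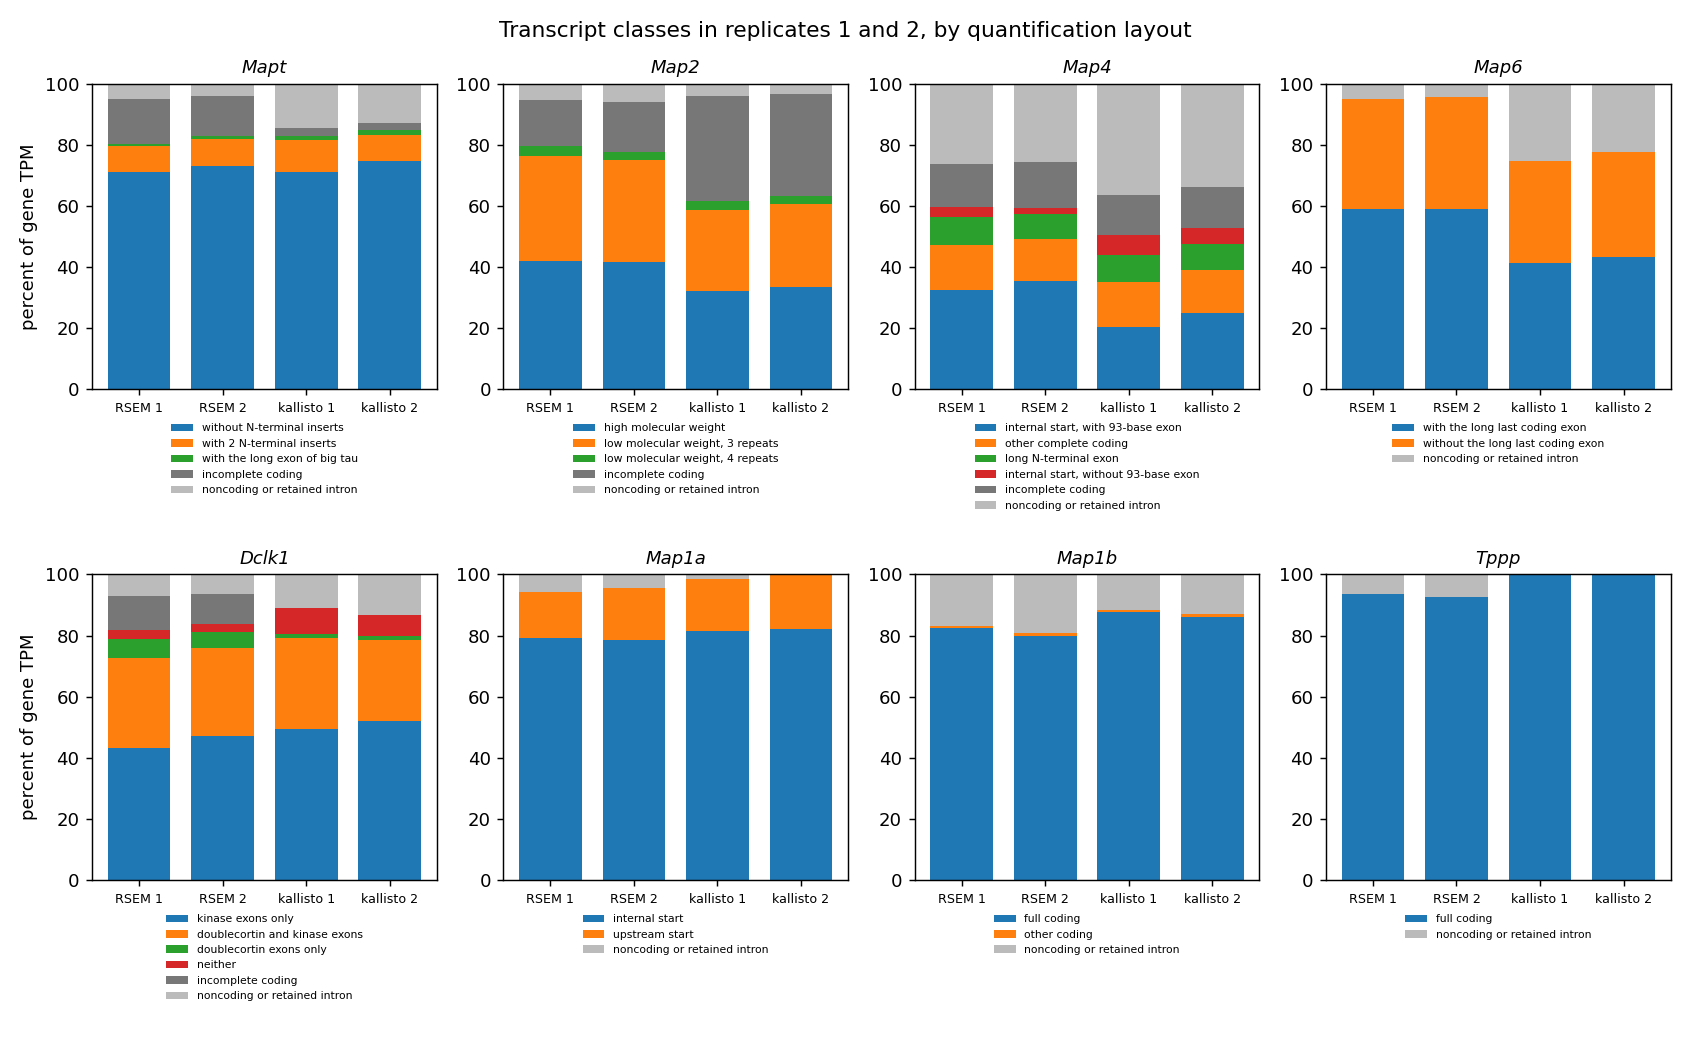
Share of each gene's TPM (percent, linear axis) held by transcript classes in replicates 1 and 2, with the RSEM layout left of the kallisto layout in each panel. For Mapt the class without N-terminal inserts held 71.0% and 73.1% in the RSEM layout, and for Map2 the high-molecular-weight class held 42.0% and 41.7%.

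MAP1B, the microtubule protein of growing axons (chr13:99421446-99516540, minus strand), was at 345 TPM in replicate 1 and 328 TPM in replicate 2, a mean of 336 ± 12.4 TPM and percentile 99.1. MAP1A, its relative of mature neurons (Map1a, chr2:121289600-121310832, plus strand), was at 205 and 223 TPM, a mean of 214 ± 12.8 TPM and percentile 97.9. The juvenile member stood above the mature one in both libraries, by 1.68 times in replicate 1 and 1.47 times in replicate 2. In the kallisto layout the ratios were 1.68 and 1.45. Both messages are long, with 11808 bases in Map1b-201 and 10145 in Map1a-202, and they drew 78453 and 72289 expected counts for Map1b, and 45625 and 50233 for Map1a.

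Among coding exons of equal length, the paralogues were most alike at the end of the light chain. That stretch is shown because it is where the genes could most easily be confused, though no identical run in it passed 14 bases. It is the 153-base coding part of the last coding exon without the stop codon, at chr2:121307932-121308084 (plus strand) for Map1a and chr13:99425809-99425961 (minus strand) for Map1b. Capitals mark the 120 identical bases.
Map1a: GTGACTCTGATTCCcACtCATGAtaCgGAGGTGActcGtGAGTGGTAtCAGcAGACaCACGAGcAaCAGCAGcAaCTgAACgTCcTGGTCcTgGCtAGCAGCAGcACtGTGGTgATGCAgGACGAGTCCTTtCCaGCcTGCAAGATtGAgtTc
Map1b: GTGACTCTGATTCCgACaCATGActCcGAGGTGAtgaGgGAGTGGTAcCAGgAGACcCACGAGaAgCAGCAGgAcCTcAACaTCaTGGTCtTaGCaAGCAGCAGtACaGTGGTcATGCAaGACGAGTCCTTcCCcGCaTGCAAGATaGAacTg
Identity was 78.4% here, and 51.8% to 59.0% in the 3 other coding exons of equal length (83, 102 and 141 bases), the only others compared. The longest identical run was 14 bases. Over whole genes, 1 of 15808 words of 31 bases in Map1b occurred in another gene, and 2.10% of those in Map1a did, led by Ppip5k1, whose 3′ end overlaps it on the other strand. Ppip5k1 was at 29.99 TPM in replicate 1 and 24.9 TPM in replicate 2; whether strand was used in counting is not stated, so a small part of Map1a is uncertain.

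Each MAP1 gene was mainly 1 coding transcript. Map1b-201, of 2464 codons, held 82.3% in replicate 1 and 80.0% in replicate 2, and noncoding or retained-intron entries held 17.0% and 19.1%. Map1a-202, which starts inside the gene at position 121295454 and encodes 2776 codons, held 79.3% and 78.5%. Map1a-201, which starts at 121289600 and encodes 3014 codons, held 14.9% and 17.0%. Transcripts from the internal start thus held 83.2% ± 1.44 of the TPM of complete Map1a coding transcripts, and 82.5% ± 0.188 in the kallisto layout.

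MAP4, the relative of tau and MAP2 that is made in most cell types (Map4, chr9:109931460-110083955, plus strand), was at 272 TPM in replicate 1 and 281 TPM in replicate 2, a mean of 277 ± 6.00 TPM and percentile 98.7. Its level was not apart from that of Dclk1, whose higher library (275 TPM) lay above the lower library of Map4. All 6 other neighbouring pairs in the order were apart, in that the lower library of the higher gene lay above the higher library of the lower gene. This holds for the first quantification. In the kallisto layout Map4 (480 and 477 TPM) was apart from and above both Map1b (463 and 439 TPM) and Dclk1 (363 and 418 TPM). Map4-204, of 933 codons, was the leading transcript, with 32.4% and 35.5% (88.3 and 99.7 TPM). The 2 transcripts with the long N-terminal exon held 9.20% and 8.33%. Map4-206, which reads only 99 codons, held 14.9% and 13.6%. Noncoding and retained-intron entries took 26.1% ± 0.360, the highest such share among the 8 genes, and 35.1% ± 1.90 in the kallisto layout, where Map4-204 held 22.5% ± 3.31.

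Map4 used an internal start for most complete coding message. Transcripts that start between 110052048 and 110062591 held 59.5% of the TPM of complete coding transcripts in replicate 1 and 63.1% in replicate 2. Those that start between 109931460 and 109931864 held 40.5% and 36.9%. In the kallisto layout the internal group held 53.4% and 57.1%, above the upstream group in both libraries. The sequences around a RefSeq start in each region (250 bases before it and 50 after, build GRCm38.p6, plus strand) are shown because the starts differ in base composition. They are chr9:109931524-109931823 (upstream) and chr9:110051771-110052070 (internal), with GGGCGG or its reverse complement CCGCCC in capitals.
Map4 upstream: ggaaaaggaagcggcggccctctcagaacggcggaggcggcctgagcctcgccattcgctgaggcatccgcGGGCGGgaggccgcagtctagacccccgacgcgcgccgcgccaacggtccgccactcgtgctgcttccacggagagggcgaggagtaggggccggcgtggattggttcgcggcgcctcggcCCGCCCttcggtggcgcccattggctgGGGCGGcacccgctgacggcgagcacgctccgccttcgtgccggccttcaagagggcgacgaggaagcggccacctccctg
Map4 internal: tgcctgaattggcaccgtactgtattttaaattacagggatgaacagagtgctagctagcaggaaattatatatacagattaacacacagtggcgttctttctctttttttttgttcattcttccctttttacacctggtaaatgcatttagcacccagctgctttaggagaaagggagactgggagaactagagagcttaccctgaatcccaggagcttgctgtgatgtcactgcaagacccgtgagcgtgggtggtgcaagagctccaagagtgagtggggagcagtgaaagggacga
The upstream window was 73.3% G or C with 42 CG pairs and held the GGGCGG motif, searched on both strands, at 3 places. The internal window was 46.0% G or C with 5 CG pairs and held it at 0 places. Over all 32851 RefSeq windows of this length the median was 52.7% G or C and 7 CG pairs, and 35.7% held the motif. TATAAA, searched on both strands, was in neither window and in 13.6% of all. RefSeq windows were matched for 6 of the 8 genes.

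MAP6, the protein of cold-stable microtubules (chr7:99267447-99337137, plus strand), was the lowest of the 8 genes, at 54.3 TPM in replicate 1 and 50.2 TPM in replicate 2. Its mean of 52.3 ± 2.87 TPM lay at percentile 85.1, and Map2 stood 8.26 times above it. Transcripts with the long last coding exon, which give 906 codons in Map6-201, held 58.9% and 59.0%. Those without it, such as Map6-204 of 568 codons, held 36.2% and 36.7%. Single transcripts behaved otherwise. Map6-205 held 47.4% in replicate 1 and 11.1% in replicate 2, and Map6-201 held 11.5% and 48.0%. These entries differ in length by 1 base and share all 3315 words of Map6-201, so within a quantification only their sum can be read. In the kallisto layout the class with the long last coding exon held 42.4% ± 1.40, and the class without it 33.8% ± 0.622. Noncoding or retained-intron entries held 23.8% ± 2.02 there.

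Dclk1 (chr3:55242364-55539068, plus strand), related to the neuronal migration gene Dcx, was at 252 TPM in replicate 1 and 275 TPM in replicate 2, a mean of 263 ± 16.4 TPM and percentile 98.6. The 6 transcripts with kinase exons only held 43.1% and 47.2% (108.5 and 129.8 TPM), and the 2 with both doublecortin and kinase exons held 29.6% and 28.6% (74.4 and 78.5 TPM). The kinase-only class was the larger in both libraries and in both quantifications, at 50.7% ± 1.93 against 28.1% ± 2.41 in the kallisto layout. Dclk1-203, with doublecortin exons only and 363 codons, held 6.15% and 5.27%, and Dclk1-212, a message of 5196 bases that reads 56 codons and has neither, held 3.09% and 2.74%.

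Over complete coding Dclk1 transcripts, the 7 that start in an internal region (55461728 to 55461972) held 56.4% of TPM in replicate 1 and 59.6% in replicate 2. The 3 that start upstream (55242364 to 55242526) held 43.6% and 40.4%, below the internal region in both libraries. The kallisto layout gave the internal region 65.0% and 68.1%. The full-length class was placed on different entries: Dclk1-201, of 756 codons, held 24.3% in the first quantification and 0.0305% in the second, and Dclk1-204, of 739 codons, held 4.78% and 28.1%. Of the words of Dclk1-201, 98.6% are also in Dclk1-204. Dclk1-214, an incomplete entry of 413 bases, held 10.4% in the first and is listed at 0 in the second.

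TPPP, the tubulin polymerization-promoting protein of myelinating glia (chr13:74009407-74035753, plus strand), was at 89.4 TPM in replicate 1 and 92.0 TPM in replicate 2, a mean of 90.7 ± 1.85 TPM and percentile 92.6. Tppp-201, of 218 codons, held 93.6% and 92.7% in the first quantification and 100% in the second. The myelin genes beside which it is made in oligodendrocytes were Mbp, at 901 and 892 TPM, and Mobp, at 165 and 161 TPM. Those levels, like that of Tppp, lay close together in the libraries.

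All 8 genes lay within 1.2-fold between the libraries, some only just. Ratios of replicate 2 to replicate 1 were taken from expected counts with TMM scaling (a depth correction from the bulk of genes). By these, 0 of 8 passed 1.2-fold, where 21.0% of 14715 genes did, 8.77% higher and 12.3% lower in replicate 2. That does not set the 8 genes apart, since they are few and the genes tested include some with far fewer counts. The highest log2 ratios were 0.24 for Map1a (counting interval 0.22 to 0.26), 0.23 for Dclk1 (0.21 to 0.25) and 0.20 for Map2 (0.18 to 0.22). All of these intervals lay above 0. As folds, Map1a was at 1.18 (upper limit 1.195) and Dclk1 at 1.17 (upper limit 1.193), just under 1.2. Map4 and Tppp followed at 0.14 and 0.12. Ratios below 0 were small: -0.02 for Map1b, -0.03 for Mapt and -0.06 for Map6. The median was 0.13 for the 8 genes and -0.000599 for all genes tested. Intervals are exact binomial at 95% and cover counting error only. By deposited TPM the median over all genes was -0.09 and that of the 8 genes 0.04.

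**Figure D4:**
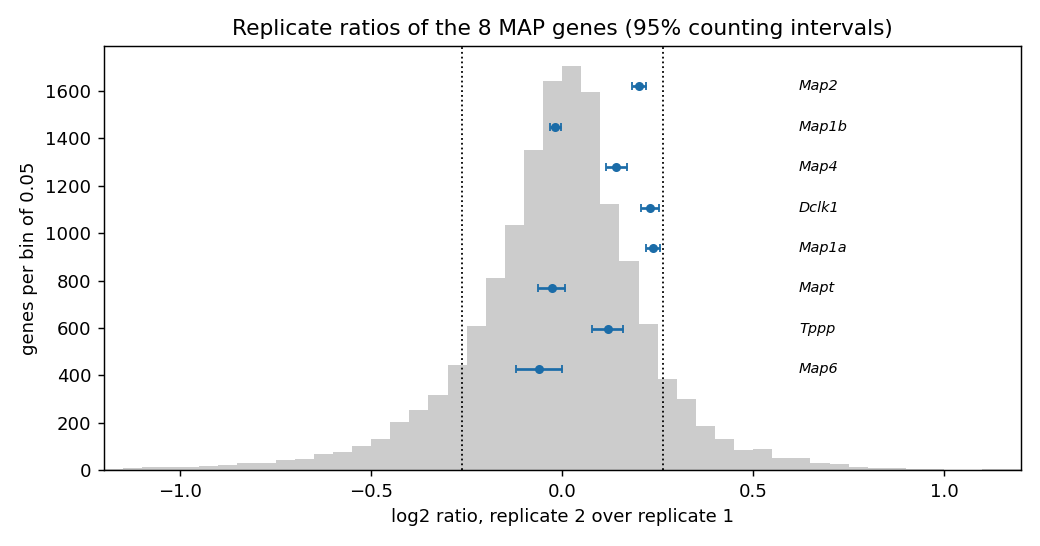
Log2 ratio of replicate 2 over replicate 1 for each gene (points, with 95% counting intervals as bars; height only separates the genes), over a histogram of the 14715 genes tested, whose bin counts are on the vertical axis. Dotted lines mark 1.2-fold, and all 8 points lie between them.

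Most other genes of microtubule control stood below Mapt, and many stood above Map6. Of 55 such genes in 5 lists, 52 were detected. By mean TPM 26 stood above Map6, 11 above Tppp, 5 above Mapt and 1 above Map2. In the list of paralogues of the 8 genes, which also held genes of proteins found with MAP1, 8 of 9 were detected. The median of that list was 32.4 ± 0.806 TPM. Map1lc3a and Map1lc3b, the LC3 proteins of autophagy first found with MAP1 and not paralogues of it, led at 149.8 ± 11.1 and 73.7 ± 1.48 TPM. The doublecortin gene Dcx was at 31.9 TPM in replicate 1 and 34.5 TPM in replicate 2, and Tppp2 had 0 expected counts in both, where counting alone allows up to 3 in each. Other lattice-binding proteins (6 of 7 detected) had a median of 29.0 ± 2.84 TPM, with Map7d1 at 96.3 ± 0.283 and Map9 at 38.9 ± 3.25 TPM, and Map7d3 lowest at 0.065 ± 0.0495 TPM.

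Stathmins, which bind tubulin dimers and favour disassembly, were the highest genes of these lists. In the list of stathmins and severing enzymes 9 of 10 were detected and the median was 42.4 ± 4.63 TPM. Stmn2, of growing axons, was at 483 TPM in replicate 1 and 426 TPM in replicate 2, and Stmn3 at 344 and 306 TPM. Stmn2 was the 1 gene of these lists with a mean above that of Map2, though it was the lower of the pair in replicate 2 and, in the kallisto layout, in both (530.4 and 463 TPM for Stmn2, 749 and 787 TPM for Map2). The severing enzyme gene Fign was lowest, at 0.670 ± 0.156 TPM. Proteins of the plus and minus ends (13 of 13 detected) had a median of 53.0 ± 3.04 TPM, led by Clasp2 at 108 ± 2.41 and Mapre2, which encodes EB2, at 101 ± 5.85 TPM, with Slain2 lowest at 11.2 ± 0.926 TPM.

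Kinases and phosphatase subunits that act on tau and its relatives were all present. The 16 genes, all detected, had a median of 54.5 ± 1.26 TPM. Cdk5r2, which encodes the p39 activator of the tau kinase CDK5, was at 117 TPM in replicate 1 and 137 TPM in replicate 2, and the tyrosine kinase gene Fyn at 113 TPM in both. Mark1, of the kinases that phosphorylate the repeat region, was lowest at 22.3 ± 1.61 TPM. Cdk5 itself was at 55.0 ± 3.85 TPM, and the tau kinases Gsk3a and Gsk3b were at 81.9 ± 0.714 and 79.9 ± 2.76 TPM.

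**Figure D5:**
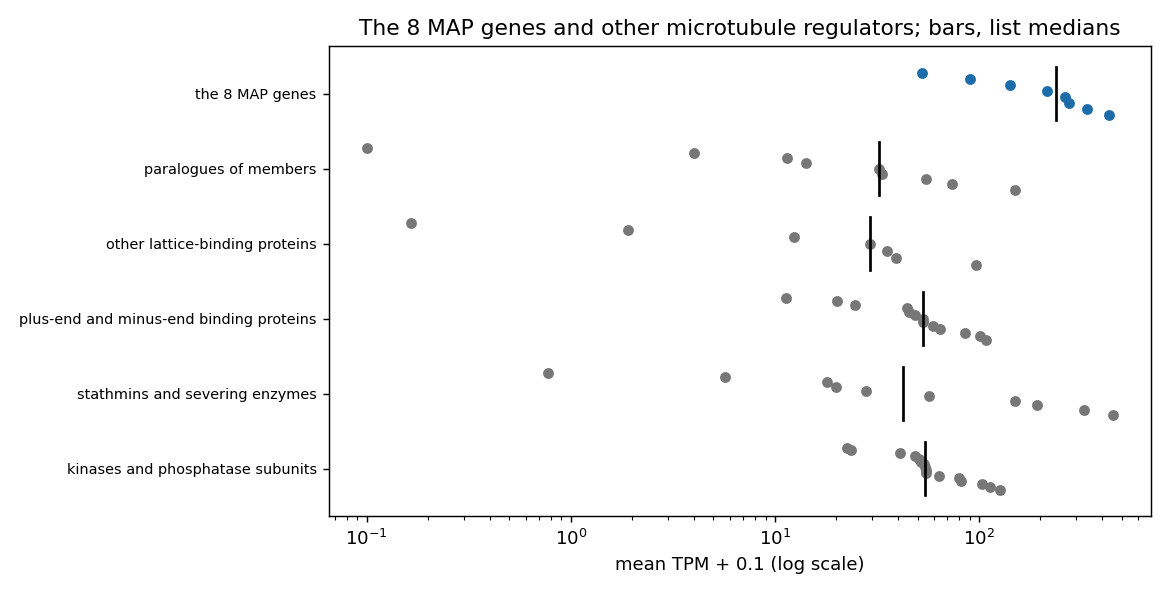
Mean TPM plus 0.1 (log axis) of the 8 genes in blue and of 55 other genes of microtubule control in 5 lists in grey, 1 point per gene, with black bars at list medians. The 8 genes have a median of 239 TPM, and the list medians lie between 29.0 and 54.5 TPM.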

How the data were processed

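Total RNA of 2 hippocampal libraries was sequenced by the authors, with ERCC spike-ins named for stranded libraries of reduced ribosomal RNA per the labels. The deposited tables use mm10 and GENCODE M21 per the file headers and accompanying notes. The RSEM-layout gene and transcript tables hold expected counts, TPM, FPKM and, for transcripts, the percent of gene TPM, as the authors deposited them. The kallisto-layout transcript tables, per the file headers, hold TPM and estimated counts. TPM was scaled by the authors over all entries, spike-ins included. No source used here gives the aligner, tool versions or strand use.

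Gene symbols came from the kallisto-layout entries by gene ID. Levels are mean ± SD over 2 libraries. Transcript classes were set by annotated coding exons, and shares computed from transcript TPM were within 0.00716 of the deposited percent. Coding transcripts tagged incomplete in the annotation were kept apart in classes and start shares, and counted in the shares of the 93-base exon where they run across it. Ratios used expected counts rounded to whole numbers, TMM scaling from edgeR 4.0.16 (R 4.3.3) and 0.5 as the prior count, over genes whose mean TPM reached 1 and whose summed counts reached 50. The ratio script was tested on simulated data. DESeq2 1.42.0 size factors were an alternative. Other tools were scipy 1.17.1, matplotlib 3.10.9, pandas 2.3.3 and numpy 2.4.6 in Python 3.11.15. Named transcripts had at least 5% of gene TPM in a library of either quantification, up to 6 per gene; Dclk1-203, Dclk1-212 and Dclk1-214 are named beyond that and were chosen after their values were seen. The genes and lists were chosen with earlier results of these data known. Sequences came from GENCODE M21 transcripts and RefSeq promoter windows. Some items are not reported here.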

Additional observations from a re-analysis of the deposited data

How the results depend on the processing

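The median level of the 8 genes was 239 TPM, 340 in the kallisto layout, 544 with TPM rescaled over nuclear protein-coding genes, and 164 in FPKM. With 1 library left out it was 228 to 249. The order by level kept 8 of 8 places in each library alone, 6 with the kallisto layout (Map1b and Map4 exchanged) and 4 by expected counts, which are not divided by length. The share of Mapt without N-terminal inserts was 72.1%, 75.6% over protein-coding entries only, and 71.0% to 73.1% with 1 library left out. The high-molecular-weight share of Map2 was 41.9%, 32.9% in the kallisto layout, 44.4% over protein-coding entries only, and 41.7% to 42.0% with 1 library left out. The Dclk1 share with doublecortin and kinase exons was 29.1%, 28.1% in the kallisto layout, 31.2% over protein-coding entries only, and 28.6% to 29.6% with 1 library left out. The median log2 replicate ratio was 0.13, and by deposited TPM it was 0.0428 with a pseudocount of 0.1 and 0.0426 with 1. For single genes, with both libraries kept, 24 of 24 alternative levels and 10 of 10 alternative shares of Map1a, Map1b, Map4, Map6 and Tppp moved by more than 1 SD between the libraries. Of 40 alternative log2 ratios, 14 moved by more than the half-width of their counting interval.

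The cause of these shifts was not tested. Single transcripts are the least certain values: 12 of 89 held over 5% of their gene in one quantification and under 1% in the other. With 2 libraries of 1 group, an SD has little precision. Reads of CAST/EiJ alleles were counted against the C57BL/6J sequence of mm10, and alleles were not told apart here. Depth did not limit the gene levels, as the lowest gene, Map6, had 4577 and 4095 expected counts. No paired analysis was possible because the series holds 1 group of 2 libraries and no comparison between groups.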

Other observations

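Entries annotated as noncoding or with a retained intron are 29 of the 89 transcripts, 9 with a retained intron and 20 processed transcripts. Their share ran from 4.62% ± 0.423 of TPM for Map6 to 26.1% ± 0.360 for Map4. In Map4 most of it was Map4-209 of 940 bases, with 17.6% in replicate 1 and 16.7% in replicate 2, and Map4-210 of 829 bases, with 7.54% and 8.13%. The kallisto layout gave these 10.4% and 12.9% on average. In Map6 it put 19.3% on Map6-209 of 677 bases, which the RSEM layout lists at 0.

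In 5 of 16 gene values, all of Map2, Map1b and Map4, the deposited TPM lay outside the interval deposited with it. Map1b in replicate 1, for example, is given as 345 TPM with an interval of 330.2 to 342 TPM.

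Several small annotated genes lie within these genes on the same strand, among them Gm42608 in Dclk1 (3.44 TPM in both libraries), 5330431K02Rik in Map1b (6.05 and 4.65 TPM) and Gm42433 in Map4 (5.82 and 5.13 TPM).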
